A study of Mus musculus with 21 samples.

Results

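The cilium assembly and motility genes described here were the 58 rows, of 23983 in the expression table, whose symbol is Ift, Bbs, Dnah, Dnaic, Tekt, Rsph or Tctn followed by a number and at most 1 letter, or is Foxj1, Rfx2, Rfx3, Arl13b, Pkd2, Dnali1, Dynlrb2, Ccdc39 or Ccdc40. Pkd1l1, which the same rule names, was not analysed here. The rule uses symbols alone and no measured value. By their known roles the 58 genes comprised 3 transcriptional regulators, 1 polycystin channel gene, 14 genes of intraflagellar transport, 8 Bbs genes, 4 genes of the transition zone and ciliary membrane, 15 dynein genes, 6 radial spoke genes, 5 tektin genes and 2 ruler genes. In the counts below, assembly genes are the 26 genes of intraflagellar transport, the Bbs family and the transition zone with Arl13b, and motility genes are the 27 genes of dynein arms, radial spokes, tektins and rulers without Dynlrb2, whose light chain also serves transport.

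A cilium is built by intraflagellar transport, in which trains of Ift proteins carried by kinesin and dynein motors move cargo along the axoneme, while the BBSome exports and sorts membrane proteins and the transition zone gates the base. A motile cilium also carries dynein arms, which bend the axoneme, radial spokes, which regulate the arms, tektins within the doublet microtubules, and the Ccdc39 and Ccdc40 rulers, which set the axonemal repeat. In the mouse embryo, pit cells of the node, from which the notochord is formed, bear motile monocilia whose rotation drives the leftward fluid flow of left-right patterning. Crown cells sense this flow through a channel that contains Pkd2. Foxj1 is the master regulator of motile cilia, and the Rfx factors bind the X-box in promoters of genes for both immotile and motile cilia.

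RNA was measured in 9 libraries, 1 for each condition, so no value below has a replicate and every difference describes the libraries named. All 6 embryonic libraries came from embryos made from 1 mouse embryonic stem cell line, F1G4 (C57BL/6N x SV129), that carried the BAC reporters T::H2B-Venus, Noto::H2B-mCherry and Foxa2::H2B-mTurquoise. Notochord progenitors (NotoP) were sorted from caudal ends as Noto+/T+/Foxa2+ cells and mesodermal progenitors (MP) as T+/Noto-/Foxa2- cells, and trunk notochord cells were sorted from trunks as T+/Noto+/Foxa2+ cells, each at E8.5 (Theiler stage 12) and at E9.5 (Theiler stage 16) from pooled embryos. The labels name tetraploid complementation as the way these embryos were made, and the study's text names aggregation with diploid morulae. The 3 cultured libraries came from stem cells with TRE::Foxa2-IRES-EGFP at Rosa26 and the BACs T::H2B-mCherry-T2A-irTA and Noto::H2B-mTurquoise, in which doxycycline induces Foxa2 in cells that express T. All 3 cultures received bFGF and the WNT agonist CHIR99021, and the NotoPdiff culture alone received doxycycline. NotoPdiff cells were sorted as Noto+/T+ cells and MPdiff (mesodermal) and NMPdiff (neuromesodermal progenitor) cells as T+/Noto- cells, the NMPdiff cells at an earlier day. In such bulk samples fewer cells of a type and less RNA per cell cannot be told apart. The ChIP-seq libraries for T and for Foxa2, 1 each, came from NotoPdiff cultures that were not sorted. Embryonic and cultured libraries were sequenced on different instruments, and their levels are given side by side without a fold between them.

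Levels were deposited as FPKM, the number of sequenced fragments normalised by transcript length and library depth. Low FPKM values multiplied by transcript length fell on whole multiples of 1 step in every library, so the number of fragments behind each value could be recovered. Of the values that came to 0.5 to 10.5 fragments in genes with a single curated transcript, 94.2 to 95.6% lay within 0.15 of a whole number, where an even spread would give 30.0%. The steps implied totals of 385000 fragments for MP at E8.5, 421000 and 455000 for trunk notochord, 1060000 and 1550000 for NotoP, 2190000 for MP at E9.5, and 20500000 to 27900000 for the cultured libraries. These totals count fragments on genes, not all mapped reads. Fewer cells were sorted for MP at E8.5 and for trunk notochord than for the other embryonic libraries. A gene listed at 0 can therefore have a true level of about 3 fragments' worth, which for Foxj1 is 3.02 FPKM in MP at E8.5 and 0.0506 FPKM in MPdiff. The upper end of the 95% interval of a value at 0 lies somewhat above this floor. The fragments are approximate for genes with several transcripts. Intervals in the text are exact Poisson or binomial 95% intervals of these fragments and cover counting error only. The summed level of 7 notochord markers (Noto, T, Foxa2, Shh, Foxa1, Chrd and Nog) was 1094 to 1433 FPKM in the embryonic NotoP and trunk notochord libraries against 79.3 and 163 FPKM in MP, and 611 FPKM in NotoPdiff against 29.2 in MPdiff and 423 in NMPdiff. In NMPdiff, T alone was 406 FPKM, with Noto at 0.515 FPKM and Shh at 0. Reporters of T, Noto and, in the embryo, Foxa2 defined the sorts, and doxycycline induced Foxa2 in NotoPdiff. The sums are therefore partly set by the design.

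**Figure D1:**
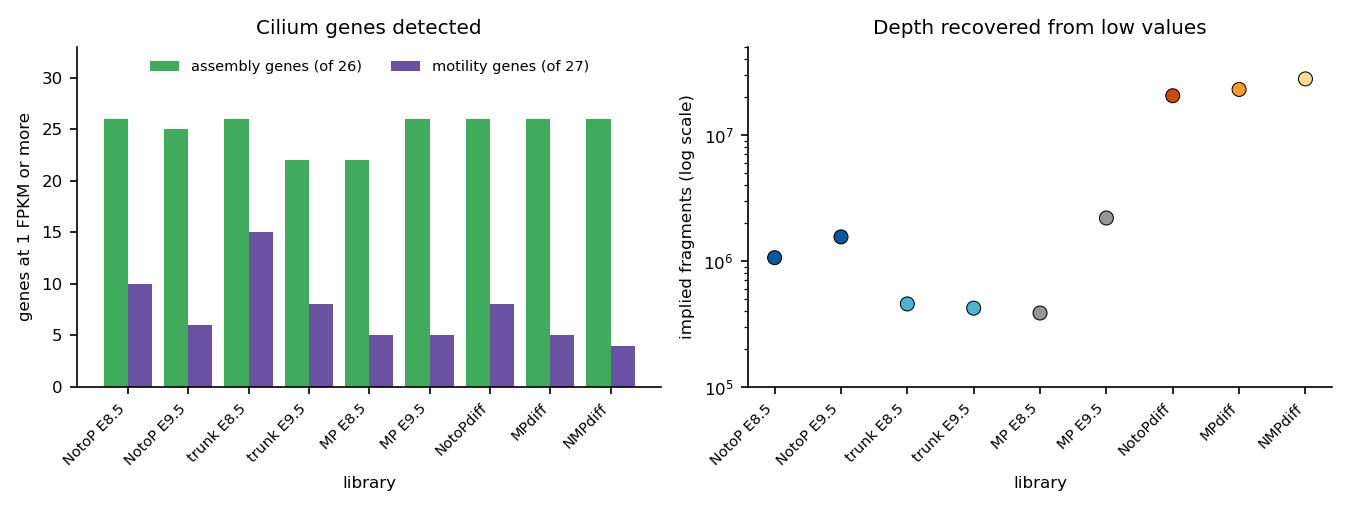
Left, number of assembly genes (of 26, green) and motility genes (of 27, purple) at 1 FPKM or more in each of the 9 libraries; right, fragments per library (log scale) as implied by the steps of low values. Assembly genes reached 22 to 26 in every library and motility genes 4 to 15, and the 3 shallowest libraries, at 385000 to 455000 fragments, are both trunk notochord libraries and MP at E8.5.

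Because Rfx factors act through the X-box, the promoters of the 58 genes were searched for it. RefSeq promoters (GRCm38.p6, equal to mm10, 250 bases before to 50 after a start) were found for 52 of the 58 genes. An X-box, taken as a pair of inverted Rfx half-sites with 0 to 3 bases between them on either strand, was present in 10 of the 52 (19.2%), against 307 of 16790 genes of the table with a promoter entry (1.83%) and 1.53% of all 32851 reference promoters. The 10 sites follow, with the X-box in capitals and 8 bases on either side where the window allows, since this is the sequence feature that assembly and motility genes shared.

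Dnaic1: gcctgtcgGTTGCTGGGTAACcgcgtcag
Dnaic2: cggccaggGTTGCTAGGCAACtggtaaac
Rsph3b: aacctcggGTTGCTCGGCAACcgatgggg
Tekt2: agggggcgGTTGCTCGGCAACcagagccg
Dynlrb2: cctgcctgGTTGCCTAGCAACgggggaag
Bbs1: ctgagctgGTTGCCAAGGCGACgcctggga
Tctn1: ctgtgactGTTGCCCGGGCAAC
Tctn2: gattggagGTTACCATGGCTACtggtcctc
Tctn3: tcccagcgGTTGCCAGGTAACgggaacca
Ift57: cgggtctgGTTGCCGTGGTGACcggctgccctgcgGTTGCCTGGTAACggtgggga

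These stretches lie, on the strand of each gene, at chr4:41569767-41569795 (Dnaic1, plus), chr11:114727378-114727406 (Dnaic2, plus), chr17:6948327-6948355 (Rsph3b, minus), chr4:126325697-126325725 (Tekt2, minus), chr8:116504956-116504984 (Dynlrb2, plus), chr19:4906605-4906634 (Bbs1, minus), chr5:122264411-122264432 (Tctn1, minus), chr5:124598679-124598708 (Tctn2, plus), chr19:40612351-40612379 (Tctn3, minus) and chr16:49699199-49699254 (Ift57, plus). The site began between 140 bases before the start (Tctn3) and 37 bases after it (Tctn1), and the Ift57 promoter held 2 sites. The Rfx half-site letters GTTGCCA, searched on both strands and able to lie within an X-box, were present in 8 of the 52 promoters (15.4%) against 4.8% of the table's genes. The forkhead letters TGTTTAC, searched on both strands, were present in 2 of 52 (3.85%, Dnah17 and Tekt3) against 3.47% of the table's genes. The X-box was found in 5 of 23 assembly promoters and 4 of 25 motility promoters, and these genes ranged in expression from Ift57, at 1.87 FPKM or more in all 9 libraries, to Dnaic2, listed at 0 in 7 of 9.

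Across the 9 libraries the assembly genes were expressed throughout and the motility genes were not. Of the 26 assembly genes, 26 reached 1 FPKM in NotoP at E8.5, trunk notochord at E8.5, MP at E9.5 and all 3 cultured libraries, 25 in NotoP at E9.5 and 22 in trunk notochord at E9.5 and in MP at E8.5. Of the 27 motility genes, 10 reached 1 FPKM in NotoP at E8.5 and 15 in trunk notochord at E8.5, then 6 and 8 at E9.5. These counts are not corrected for depth. In trunk notochord at E8.5, Rsph1 and Rsph3b passed on 1 fragment, worth 1.99 and 1.36 FPKM, and Rsph3a and Tekt2 on 2 fragments. In MP they were 5 at each stage, and in culture 8 in NotoPdiff, 5 in MPdiff and 4 in NMPdiff. Over all genes, 39.7 to 49.5% were at 1 FPKM or more, lowest in MP at E8.5, which also had the most genes listed at 0 (58.1%, against 31.6 to 51.7% elsewhere).

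**Figure D2:**
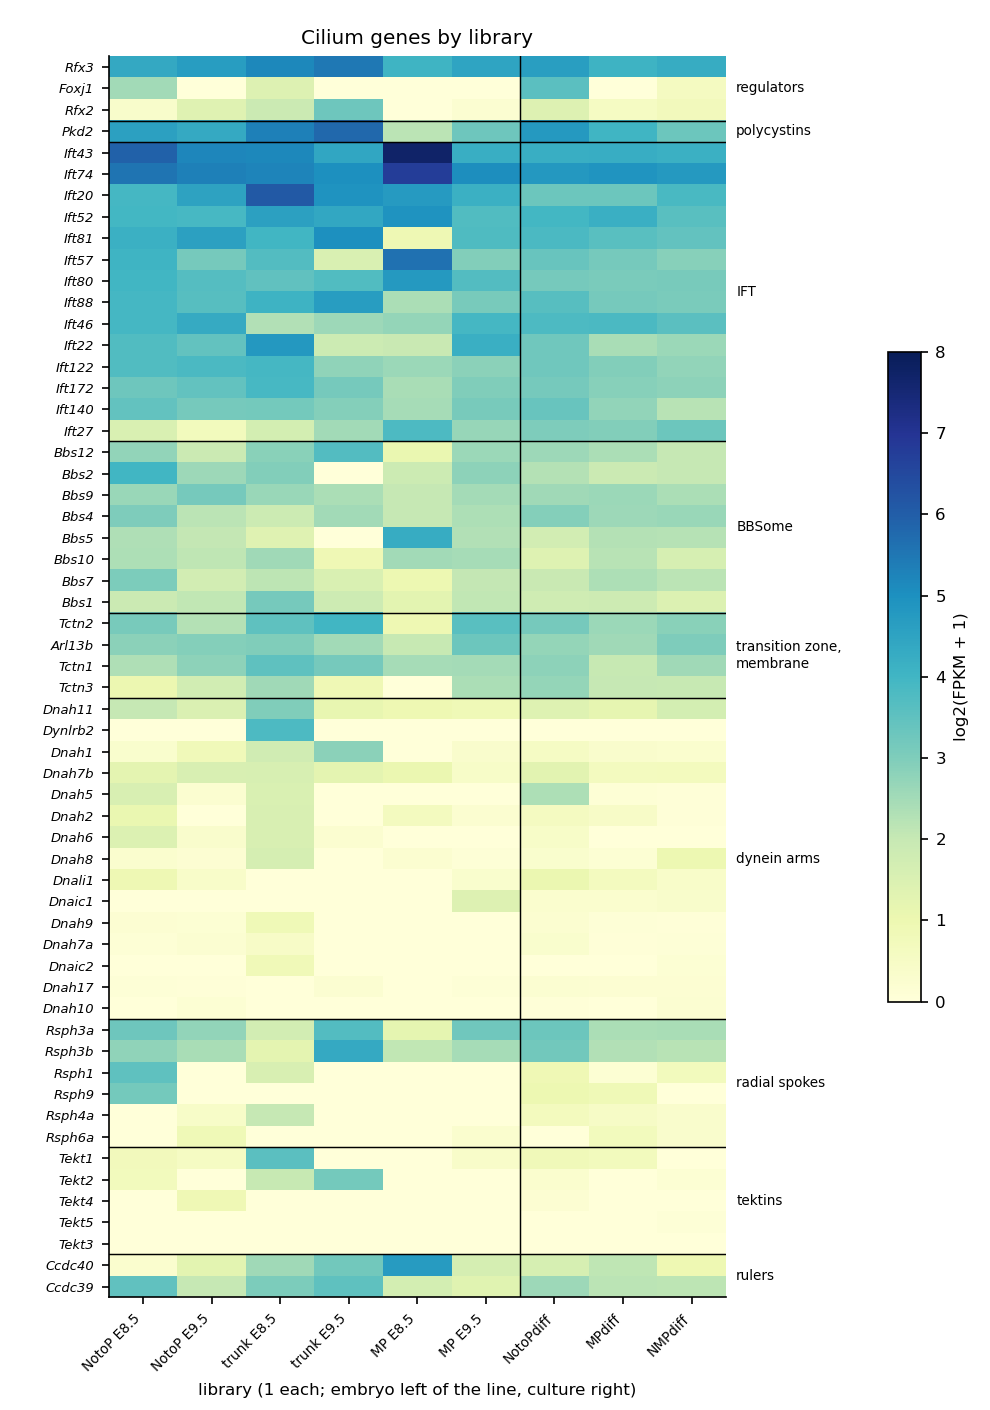
Level of each of the 58 cilium genes, as log2(FPKM + 1), in the 9 libraries (columns; embryo left of the line, culture right), ordered by role and summed level. Intraflagellar transport genes are high in every column, whereas most dynein and tektin genes are pale in most columns. Trunk notochord at E8.5 has the most motility genes at 1 FPKM or more (15 of 27), some of them on 1 or 2 fragments. Ift43 reaches 207 FPKM in MP at E8.5 alone.

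Foxj1 was detected in E8.5 notochordal cells and in NotoPdiff cells. Its level was 4.76 FPKM in NotoP at E8.5 (13 fragments, interval 2.53 to 8.13), 1.71 FPKM in trunk notochord at E8.5 (2 fragments), 10.9 FPKM in NotoPdiff (577 fragments) and 0.514 FPKM in NMPdiff (37 fragments). It was listed at 0 in NotoP at E9.5, trunk notochord at E9.5, both embryonic MP libraries and MPdiff. The 2 deeper E9.5 libraries had the lowest floors for it among these embryonic libraries, at 0.749 FPKM in NotoP and 0.532 FPKM in MP. With values listed at 0 set to the floor of 3 fragments, Foxj1 in NotoP at E8.5 was 6.35-fold its level in NotoP at E9.5. On the same scale it was 8.94-fold that in MP at E9.5 and only 1.57-fold that in MP at E8.5. In culture, Foxj1 in NotoPdiff was 215-fold its floor in MPdiff. These folds leave out the counting error of the measured level, so they are not lower limits. Against NMPdiff, Foxj1 was 21.2-fold higher in NotoPdiff (interval 15.2 to 30.4).

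Rfx3 and Rfx2, which encode X-box binding factors, were highest in trunk notochord. Rfx3 was 35.1 and 43.7 FPKM there at E8.5 and E9.5, 19.6 and 24.5 FPKM in NotoP, 15.6 and 21.3 FPKM in MP, and 23.8, 15.9 and 18.2 FPKM in NotoPdiff, MPdiff and NMPdiff. Trunk notochord exceeded NotoP 1.79-fold at E8.5 (interval 1.44 to 2.23) and 1.78-fold at E9.5 (1.48 to 2.15), while the intervals of NotoP over MP at E9.5 (0.997 to 1.33) and of NotoP at E8.5 over MP at E9.5 (0.771 to 1.09) included equal levels. Rfx2 was 2.68 and 8.70 FPKM in trunk notochord on 4 and 12 fragments, 0.288 and 1.57 FPKM in NotoP on 1 and 8, 0.139 FPKM in MP at E9.5 on 1 fragment and listed at 0 in MP at E8.5. In culture, Rfx2 was 1.69 FPKM in NotoPdiff, 0.464 in MPdiff and 0.667 in NMPdiff, which is 3.65-fold (2.48 to 5.49) and 2.54-fold (1.84 to 3.52) higher in NotoPdiff. Rfx2 was highest of the 9 libraries in trunk notochord at E9.5, where Foxj1 was listed at 0. The floor of Foxj1 there was 2.77 FPKM, above its 1.71 FPKM in trunk notochord at E8.5, so this 0 does not show a lower level.

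Pkd2, the flow sensor subunit, followed the order trunk notochord, NotoP, MP at each stage. It was 39.2 and 54.3 FPKM in trunk notochord, 23.0 and 19.0 FPKM in NotoP and 3.49 and 8.69 FPKM in MP, and 26.2 FPKM in NotoPdiff against 15.0 in MPdiff and 8.77 in NMPdiff. It rested on 93 to 154 fragments in every embryonic library except MP at E8.5, which had 7. NotoP exceeded MP 6.59-fold at E8.5 (3.11 to 16.7) and 2.19-fold at E9.5 (1.69 to 2.85), and trunk notochord exceeded NotoP 1.71-fold (1.29 to 2.25) and 2.85-fold (2.23 to 3.65). The node crown genes Nodal and Dand5, which mark the cells that sense the flow, were 8.56 and 9.53 FPKM in NotoP at E8.5, 1.54 and 5.29 FPKM in NotoP at E9.5 and listed at 0 in trunk notochord at both stages, while Gdf1, also a crown cell gene, was 7.84 and 23.9 FPKM there and 21.8 and 14.9 FPKM in NotoP. Lefty1, which is on the same list, was listed at 0 in NotoP at E8.5 and in trunk notochord, and was 2.01 FPKM in NotoP at E9.5.

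**Figure D3:**
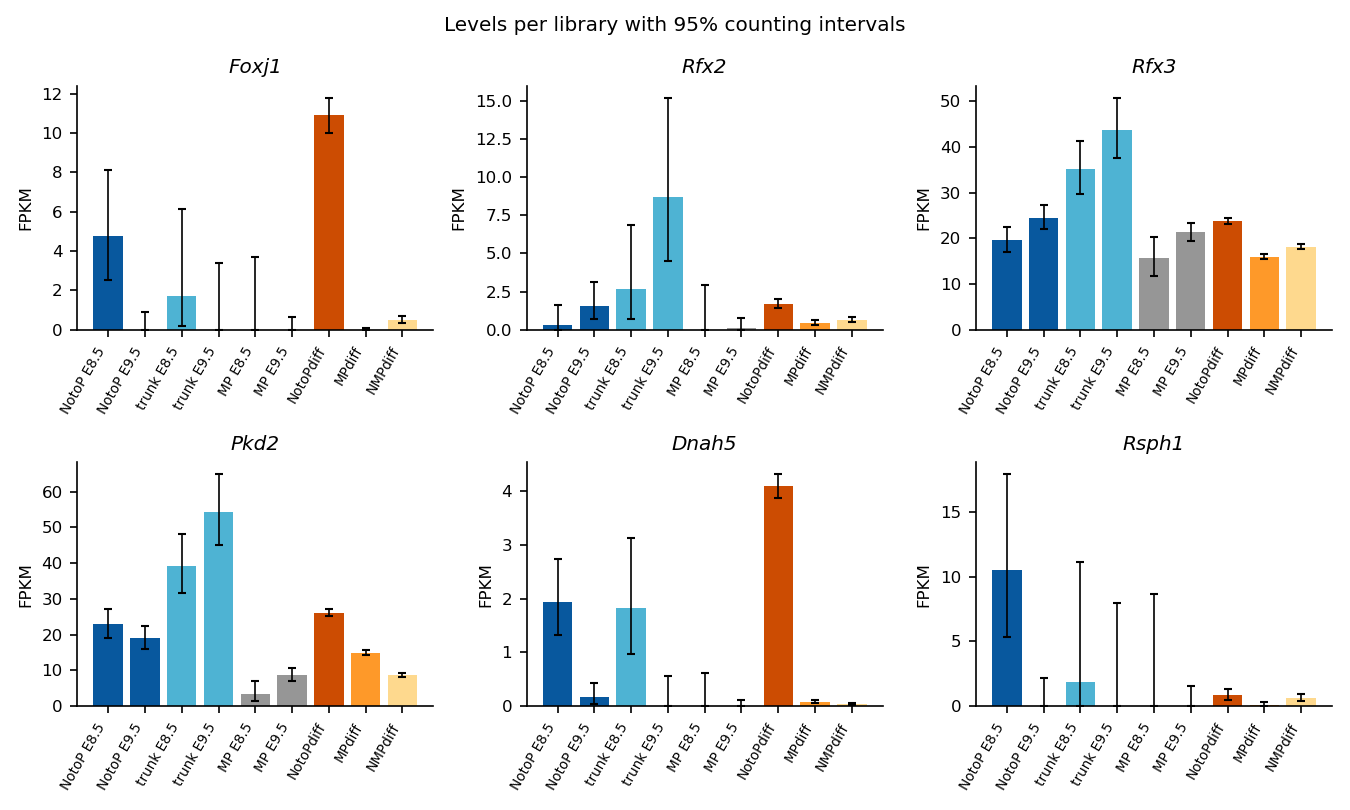
FPKM of Foxj1, Rfx2, Rfx3, Pkd2, Dnah5 and Rsph1 in each of the 9 libraries (bars, 1 library each), with exact Poisson 95% intervals of the recovered fragments as error bars. Foxj1, Dnah5 and Rsph1 are detected in NotoP and trunk notochord at E8.5, in NotoPdiff and in NMPdiff, and are listed at 0 in embryonic MP. Rfx3 and Pkd2 are present in all 9 libraries and highest in trunk notochord. Shallow libraries have wide intervals and high floors, as for Rsph1 in MP at E8.5 (7.05 FPKM).

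Whether NotoP differed from MP was asked at each stage with the 3-fold rule of the study, on log2 ratios after 1 FPKM was added to each value. At both stages together, 0 of 58 cilium genes were at least 3-fold higher in NotoP (1.31% of all genes were) and 1 was lower (0.238% of all genes). With 0.1 FPKM added in place of 1, 2 cilium genes were higher at both stages, Dnah6 and Rfx2 (3.98% of all genes), and at 2-fold, 2 were, Ift122 and Pkd2 (3.37%). The lower gene was Ift27, a small GTPase subunit of the transport train: 1.86 FPKM in NotoP against 12.8 in MP at E8.5 and 0.635 against 5.41 at E9.5, on 2 against 5 and on 1 against 12 fragments. Hspb11, which encodes the Ift25 partner of Ift27 and is outside the rule, was also at least 3-fold lower at both stages, listed at 0 against 4.64 FPKM and at 2.30 against 9.00 FPKM, on 0 against 1 and 2 against 12 fragments. In culture Ift27 was 7.01 FPKM in NotoPdiff and 6.73 FPKM in MPdiff. Both differences rest on few fragments in every NotoP library. Summed over 7 paraxial mesoderm markers, NotoP had 137 and 123 FPKM at E8.5 and E9.5 and MP 245 and 345 FPKM, with Tbx6 at 44.0 FPKM in NotoP and 39.3 FPKM in MP at E8.5, and their part in the differences between NotoP and MP was not tested.

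At E8.5, 12 genes were at least 3-fold higher in NotoP than in MP (8.83% of all genes) and 4 were lower (4.02% of all genes). The higher genes were Foxj1, Pkd2, the transport genes Ift22 and Ift81, Bbs2, Bbs7 and Bbs12, the transition zone gene Tctn2, the radial spoke genes Rsph1, Rsph3a and Rsph9, and Ccdc39. The lower ones were Ift27, Ift43, Bbs5 and Ccdc40. Every one of the 12 was at 0 to 7 fragments in MP at E8.5, and Foxj1, Rsph1 and Rsph9 were at 0. Ift81, a core subunit that binds tubulin cargo together with Ift74, illustrated this: it was 16.6 FPKM in NotoP on 52 fragments and 0.880 FPKM in MP on 1, yet 12.6 FPKM in MP at E9.5. Ccdc40 differed in the opposite direction, with 25.0 FPKM in MP at E8.5 on 46 fragments, 0.189 FPKM in NotoP on 1 and 2.11 FPKM in MP at E9.5, while its ruler partner Ccdc39 was 2.15 FPKM in MP and 10.2 FPKM in NotoP. Ift43 (207 FPKM) and Ift74 (108 FPKM) were also far higher in MP at E8.5 than in the other 8 libraries, which ranged from 16.8 to 59.4 FPKM and from 26.3 to 46.2 FPKM. Of the 18 cilium genes at 5 FPKM or more in the other 3 progenitor libraries, 2 exceeded 3 times their highest level in MP at E8.5 and 3 fell below 1/3 of their lowest, against 1.17% and 7.2% of 6593 such genes overall. When NotoP at E8.5 was set against MP at E9.5 instead, 5 genes were then higher (3.96% of all genes), namely Foxj1, Ccdc39, Rsph1, Rsph9 and Ift43, and 0 lower (2.42%).

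Rsph1 and Rsph9, which encode spoke head proteins of motile cilia, had their highest measured levels in NotoP at E8.5. Rsph1 was 10.5 FPKM in NotoP at E8.5 (12 fragments, 5.30 to 17.9) and 1.89 FPKM in trunk notochord at E8.5 on 1 fragment. Rsph9 was 8.01 FPKM in NotoP at E8.5 (8 fragments, 3.42 to 15.6). Rsph9 was listed at 0 in all 5 other embryonic libraries and Rsph1 in NotoP at E9.5, trunk notochord at E9.5 and both MP libraries. Floors of Rsph9 were 6.93 and 7.5 FPKM in trunk notochord at E8.5 and E9.5 and 8.19 FPKM in MP at E8.5. Those of Rsph1 were 6.45 FPKM in trunk notochord at E9.5 and 7.05 FPKM in MP at E8.5. All of these lie within the intervals in NotoP at E8.5, so a 0 in these shallow libraries does not show a lower level. Set against their floors in NotoP at E9.5, the measured E8.5 levels were 6.02-fold higher for Rsph1 and 3.94-fold higher for Rsph9. These folds leave out the counting error of the E8.5 levels.

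At E9.5, 0 of 58 genes were at least 3-fold higher in NotoP than in MP (2.63% of all genes) and Ift27 alone was lower (1.11%). The median log2 ratio of the 58 genes was 0.097 at E9.5 and 0.525 at E8.5, the latter against the shallow MP library. Over all genes it was 0 at both stages. Of 23983 genes, 9725 at E9.5 and 10952 at E8.5 had equal values in both libraries, which holds that median near 0, so it is a poor reference. In the comparison of NotoP at E9.5 with NotoP at E8.5, which was chosen after the values were seen, 0 genes were higher (2.3% of all genes) and 3 were lower (1.99%): Foxj1, Rsph1 and Rsph9. Of the 15 dynein genes, 8 were below their E8.5 level, 4 above and 3 equal, none of them by 3-fold on the scale with 1 FPKM added. Dnah5, an outer arm heavy chain, went from 1.93 FPKM on 32 fragments to 0.165 FPKM on 4, a ratio of 0.0854 (0.0219 to 0.241). Dnah6, an inner arm heavy chain, went from 1.71 to 0.255 FPKM, and Dnah2 from 1.10 FPKM on 16 fragments to a value listed at 0. Dnah11 was 3.02 and 1.78 FPKM at E8.5 and E9.5, while Dnah7b (1.38 and 1.93 FPKM) and Dnah1 (0.220 and 0.750 FPKM) were above their E8.5 level.

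The trunk notochord libraries were compared with NotoP to ask how the genes differ once cells have left the caudal end. At E8.5, 5 genes were at least 3-fold higher in trunk notochord (4.58% of all genes) and 3 were lower (4.17%). Ift20, the subunit that sorts cargo at the Golgi, was 68.6 FPKM in trunk notochord on 35 fragments and 14.1 FPKM in NotoP on 17, or 4.86-fold higher (2.62 to 9.14), and Ccdc40 was 4.86 FPKM on 11 fragments against 0.189 FPKM on 1. Tekt1 (10.9 FPKM), Rsph4a (3.01 FPKM) and the dynein light chain gene Dynlrb2 (12.8 FPKM) rested on 7, 5 and 3 fragments in trunk notochord, and Dynlrb2 was listed at 0 in the other 8 libraries. Rsph1, Rsph9 and Ift46 were lower by this rule, Rsph1 and Rsph9 on 1 and 0 fragments in trunk notochord, and Ift46 at 3.95 against 14.1 FPKM on 6 and 50 fragments. Dnah5 (1.83 FPKM, 13 fragments), Dnah6 (1.91 FPKM, 11) and Dnah2 (1.93 FPKM, 12) were at levels close to those of NotoP at E8.5, with intervals of the ratios that included 1. Of the 26 motility genes above 0 anywhere, 10 had their highest level of the 9 libraries in trunk notochord at E8.5, where 12.6% of all detected genes had theirs. Of the 26 assembly genes, 7 were highest in this library and 7 in MP at E8.5, which is also shallow. The 10 motility genes ranged from Dnaic2 on 1 fragment and Dnah7a on 2 to Dnah11 on 44.

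At E9.5, 8 genes were at least 3-fold higher in trunk notochord than in NotoP (4.33% of all genes) and 5 were lower (5.17%). Higher were Rfx2, Dnah1, Ccdc40, Tekt2, Rsph3b, Bbs12, Tctn2 and Ift27. Dnah1, an inner arm heavy chain, was 6.09 FPKM on 33 fragments against 0.750 FPKM on 15, the largest ratio among those with 10 or more fragments in both libraries (8.12-fold, 4.29 to 16.1). Tekt2, a tektin of the doublet microtubules, was 7.96 FPKM on 5 fragments against a value listed at 0. Rsph3b, which has the close paralog Rsph3a so that reads could be shared between them, was 19.1 against 4.39 FPKM, and Rsph3a was 12.1 against 5.59 FPKM. Lower by this rule were Ift22, Ift46, Ift57, Bbs2 and Bbs5, of which Bbs2 and Bbs5 were listed at 0 in trunk notochord. Their floors there were 2.69 and 5.19 FPKM, against levels of 5.03 and 3.18 FPKM in NotoP. The 0 of Bbs5 therefore does not show a lower level. Ift22 and Ift57 rested on 1 and 2 fragments in trunk notochord, against 14 and 31 in NotoP. Ift46, a subunit that carries outer dynein arm cargo, was the only gene lower than in NotoP at both stages (4.99 against 18.5 FPKM at E9.5, on 7 and 96 fragments), and Ccdc40 the only one higher at both.

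Markers of other cells differed between these libraries and their part was not tested. Summed over 8 neural tube markers, trunk notochord had 108 and 78.5 FPKM against 37.7 and 31.4 FPKM in NotoP, led by Irx3, with Olig2 at 0 in all 4 of these libraries. Summed over 7 gut endoderm markers in the table, the levels were 149 and 160 FPKM against 102 and 35.9 FPKM. Afp was 95.7 FPKM in trunk notochord at E9.5 and 62.2 FPKM in MP at E8.5. The endoderm markers were uneven. Afp and Ttr were detected in trunk notochord and listed at 0 in NotoP at both stages. Cdh1 was higher in trunk notochord at both stages, Epcam and Trh at E8.5 and Cldn6 at E9.5. Lower there were Cldn6 (29.2 against 47.0 FPKM) and Sox17 at E8.5, and Epcam (2.31 against 8.12 FPKM) and Trh at E9.5. The 7 paraxial mesoderm markers summed to 45.4 and 22.0 FPKM in trunk notochord, below the 137 and 123 FPKM of NotoP, and Tbx6 was listed at 0 in both trunk libraries. This list was uneven too. Tbx6, Msgn1 and Dll1 were lower in trunk notochord at both stages. At E8.5, Meox1 (25.9 against 14.9 FPKM), Foxc2 (9.69 against 2.77), Pcdh8 and Osr1 were higher there than in NotoP. At E9.5, Pcdh8 (4.48 against 0.162 FPKM) and Foxc2 were higher there. The 8 blood markers summed to 0 to 2.27 FPKM in all 9 libraries. Of 5 markers of multiciliated cells, all were at 0 in trunk notochord, MP and NotoP at E9.5, and Ccno, at 22.1 FPKM in NotoP at E8.5, was the only one to exceed 1 FPKM in any library.

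**Figure D4:**
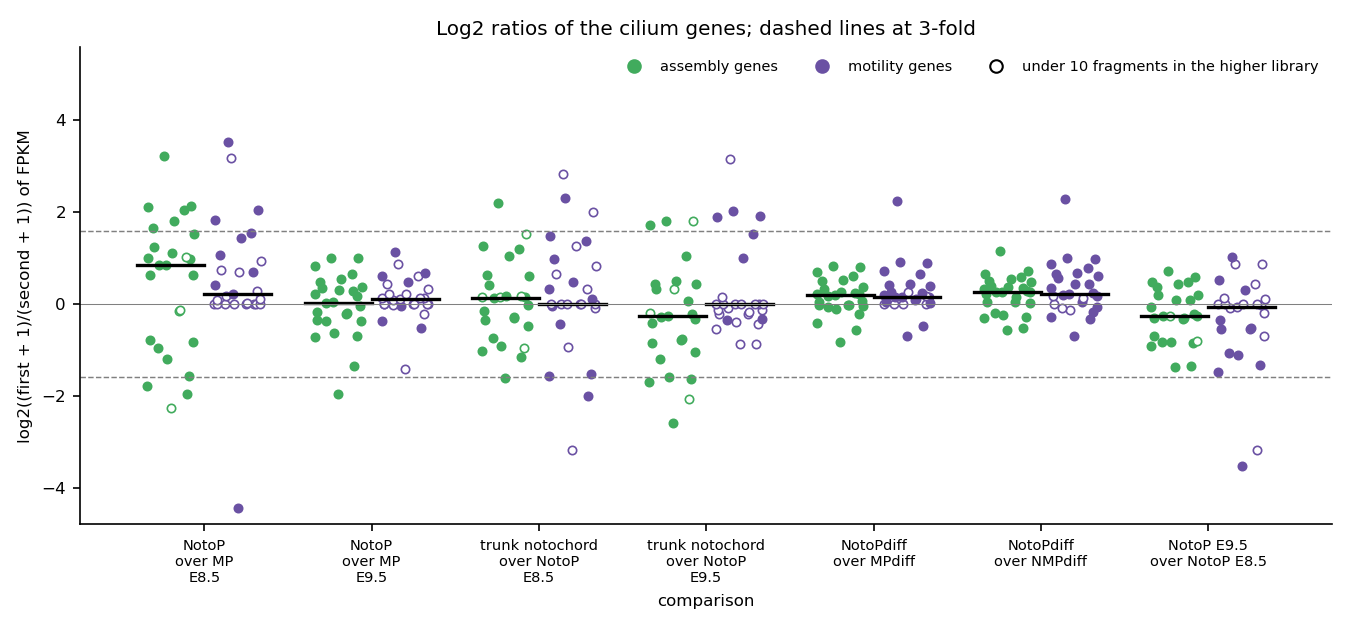
Log2 ratio of each assembly (green) and motility (purple) gene in 7 comparisons of 2 libraries, with 1 FPKM added to each value; black bars are medians, dashed lines mark 3-fold and open circles have under 10 recovered fragments in the library where the gene is higher. The spread is narrow in the deep cultured libraries, where the single motility point beyond the line in each comparison is Dnah5, and wide wherever MP at E8.5 or trunk notochord enters.

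In culture, NotoPdiff cells differed from MPdiff and NMPdiff cells in Foxj1 and Dnah5. These were the 2 genes at least 3-fold higher in NotoPdiff than in MPdiff (1.55% of all genes), with 0 lower (0.442%), and also the 2 higher than in NMPdiff (1.31%), again with 0 lower (0.796%). The comparisons share the NotoPdiff library. Dnah5 was 4.08 FPKM in NotoPdiff on 1310 fragments, 0.0779 FPKM in MPdiff on 28 and 0.0367 FPKM in NMPdiff on 16. That is 52.4-fold (36.1 to 79.2) and 111-fold (68.2 to 195) higher. Dnah6 stayed under the 3-fold rule because of its low level, at 0.343 FPKM on 89 fragments in NotoPdiff, and was listed at 0 in both other libraries. Its measured level was 33.2-fold and 40.3-fold its floors there, without the counting error of the NotoPdiff level.

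Other motility genes, chosen after their values were seen, had smaller differences at the depth of these libraries. Dnah9, an outer arm heavy chain, was 0.17 FPKM in NotoPdiff, 3.16-fold (1.79 to 5.87) above MPdiff and 6.52-fold (3.26 to 14.5) above NMPdiff, and Dnah7a, which has the near-identical copy Dnah7b, was 6.72-fold and 3.71-fold above them. Rsph3a and Rsph3b were 2.09-fold and 2.08-fold above MPdiff, on 356 and 273 fragments. Rsph1 was 0.837 FPKM in NotoPdiff, 0.112 in MPdiff and 0.616 in NMPdiff, and Rsph9 was 0.982, 0.831 and listed at 0, so neither separated NotoPdiff from both other cell types as Foxj1 did. Dnah8 and Dnah10 were lower in NotoPdiff than in NMPdiff, with ratios of 0.225 (0.171 to 0.292) and 0.151 (0.0583 to 0.330). Dnaic1 (0.215, 0.192 and 0.273 FPKM), which encodes an outer arm intermediate chain needed for motility, did not differ beyond its intervals, and Dnaic2 was listed at 0 in NotoPdiff and MPdiff.

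Counted by direction alone, 22 of 27 motility genes were above and 2 below in NotoPdiff over MPdiff, and 16 of 26 assembly genes were above and 10 below. Over all genes, 37.8% were above and 32.4% below, and many were at 0 in both. Against NMPdiff, 19 motility and 20 assembly genes were above and 7 and 6 below, and over all genes 35.5% were above and 36.3% below. The median log2 ratio of the 58 genes was 0.182 against MPdiff and 0.264 against NMPdiff. Over all genes it was 0, with 7157 and 6770 genes at equal values, which holds that median near 0. The gene-level differences in the assembly group were small: Ift140, a retrograde transport subunit, was 9.22, 5.72 and 3.62 FPKM, and Arl13b, a ciliary membrane GTPase, was 5.54, 4.79 and 7.08 FPKM. The gut endoderm markers summed to 326 FPKM in NotoPdiff, 34.0 in MPdiff and 216 in NMPdiff, and the paraxial mesoderm markers to 84.6, 182 and 87.5 FPKM. The endoderm list was uneven. In NMPdiff, Cdh1 (114 FPKM) and Epcam (81.0) led it, with Sox17 at 0.599, Ttr at 0.323 and Afp at 0. In NotoPdiff, Cldn6 (126 FPKM), Cdh1 (88.5) and Trh (71.8) led it, with Sox17 at 7.46, Afp at 0.233 and Ttr at 0. The part of both lists in these differences was not tested.

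The remaining genes were low or uneven. Tekt3 was listed at 0 in all 9 libraries, Tekt5 in 8, Tekt4 and Dnaic2 in 7, and Rsph6a and Dnah10 in 5. Dnah17 stayed at or below 0.160 FPKM and Dnali1, a light intermediate chain gene, at or below 1.05 FPKM, its level in NotoPdiff. Dnaic1 was 1.65 FPKM on 9 fragments in MP at E9.5 and 0 in the other 5 embryonic libraries. The 7 Bbs genes other than Bbs5 ranged from 0 to 14.7 FPKM, Tctn1 from 2.98 to 10.5 FPKM and Tctn3 from 0 to 5.47 FPKM. Ift52, Ift80, Ift122 and Ift172 were between 4.32 and 29.3 FPKM in every library, and Ift88 between 4.21 and 24.7 FPKM. Ift57 was 48.0 FPKM in MP at E8.5 and 1.87 FPKM in trunk notochord at E9.5, and between these in the other 7.

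Genes of the same pathway outside the rule were counted in the same way. Of 35 further motility genes in the table (of 42 listed), 2 were at least 3-fold higher in NotoP than in MP at both stages, Nme5 and Ropn1l, which encode radial spoke proteins (1.31% of all genes), and 0 lower (0.238%). Nme5 was 19.3 FPKM on 17 fragments and 2.33 FPKM on 3 in NotoP and listed at 0 in MP, and Ropn1l was 8.29 and 6.37 FPKM against 0. Of 48 further assembly genes, 1 was higher (B9d2, on 3 and 8 fragments in NotoP and 0 in MP) and 1 lower (Hspb11). Of 7 further regulators, Noto was higher, which the sorts by its reporter had set in advance. In NotoPdiff over MPdiff, 4 of the 35 motility genes were higher (1.55% of all genes), Nme5, Dnaaf3, Enkur and Pifo, and 0 lower (0.442%). In NotoPdiff over NMPdiff, 1 was higher (1.31%), Enkur, and 0 lower (0.796%). Enkur was 3.17 FPKM on 78 fragments against 0.0363 FPKM on 1, and Pifo 2.14 FPKM on 40 fragments against 0. Pifo was also 9.69 and 7.85 FPKM in trunk notochord, on 4 and 3 fragments, and listed at 0 in NotoP and MP. Rfx4 was 15.6 and 7.94 FPKM in trunk notochord, 5.65 FPKM in NotoP at E8.5 on 20 fragments and 0 in NotoP at E9.5 and in MP.

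Peaks of T and Foxa2 in NotoPdiff cultures were then placed relative to the cilium genes. A T peak lay within 5000 bp of an annotated start of 3 of 58 genes (5.17%, against 5.79% of 22537 placed genes), Foxj1, Rfx3 and Tekt4, and a Foxa2 peak at 2 of 58 (3.45%, against 10.2%), Dnah2 and Ift57. No cilium gene had a peak of either factor within 1000 bp, where 3.02% of placed genes had 1 of T and 2.44% had 1 of Foxa2. The T peak nearest to a start was at Foxj1, with its summit 1780 bp upstream, at chr11:116336989-116337474, and a fold enrichment of 14.4, which ranked 717 of 6875 T peaks. The summit of this peak lies within the neighbouring gene Rnf157. The 30 bases around the letters TCACAC or their complement in it, in capitals and on the strand of Foxj1, are shown as the only such match within 50 bp of the summit.

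Foxj1 T peak: gttcacagtgtgGTGTGAcctgggaggagg

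They lie at chr11:116337112-116337141 (minus). The letters were present within 50 bp of the summit in 23.4% of all T peaks. A second Foxj1 region, 22.9 kb downstream, had overlapping T (9.94-fold) and Foxa2 (6.00-fold) peaks. The T peak upstream of Rfx3 (chr19:28015505-28015942) had a fold enrichment of 10.6 and lay 4556 bp from the start, and that of Tekt4 8.60 at 4885 bp.

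In a wider window chosen after the values were seen, the gene and 50 kb on either side, T peaks were found at 28 of 58 genes (48.3%, against 34.0% of all placed genes) and Foxa2 peaks at 38 (65.5%, against 61.2%). The cilium genes are longer, with a median span of 37.1 kb against 14.5 kb, so their windows are larger. In this window the Foxa2 peak in an intron of Dnaic1, at chr4:41630079-41630687, had a fold enrichment of 27.9, the rank 2 of 22684, and overlapped a T peak of 4.30. Peaks of T (19.0) and Foxa2 (23.9, rank 16) overlapped 27.2 kb upstream of Ift52, within the gene Sgk2 (chr2:162989876-162990350 for Foxa2). A Foxa2 peak 43.7 kb upstream of Dnah5 had a fold enrichment of 20.2, and 1 in an intron of Dnah5, 265 kb from its start, had 21.2. A Foxa2 peak downstream of Dnah9, within the gene Zkscan6, also had 21.2, and 1 in an intron of Pkd2 had 17.4. The 101 bases centred on 4 Foxa2 summits, that upstream of Ift57 included, are shown to set the 2 kinds of sequence beside each other, with the forkhead letters TGTTTAC or their complement in capitals.

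Dnaic1: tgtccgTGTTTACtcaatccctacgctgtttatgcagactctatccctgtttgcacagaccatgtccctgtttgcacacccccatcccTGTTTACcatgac
Ift52: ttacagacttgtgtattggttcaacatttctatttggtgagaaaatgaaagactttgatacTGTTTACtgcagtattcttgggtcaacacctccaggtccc
Ift57: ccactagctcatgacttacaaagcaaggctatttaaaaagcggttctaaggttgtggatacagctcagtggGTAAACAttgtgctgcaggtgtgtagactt
Pkd2 intron: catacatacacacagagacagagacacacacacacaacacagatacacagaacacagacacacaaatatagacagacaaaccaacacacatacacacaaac

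The windows are chr4:41630315-41630415 (plus), chr2:162990054-162990154 (plus), chr16:49695110-49695210 (plus) and chr5:104482576-104482676 (plus). The first 3 hold forkhead letters, and the Pkd2 window is mostly runs of CA. These 4 windows are examples: forkhead letters were present in 8 of the 98 Foxa2 windows at cilium genes (8.16%) and in 9.74% of all Foxa2 peak windows. Of the 101 bases of the Pkd2 window, 55.4% were in runs of 4 or more alternating C and A or T and G bases. At least 50% of bases were in such runs in 23 of 98 Foxa2 windows at cilium genes (23.5%) and in 17.5% of all 22684 Foxa2 windows, against 0 of 40 T windows at cilium genes and 0.145% of all 6875 T windows. The Foxa2 peaks 11.6 kb downstream of Foxj1 (14.8-fold, 50.5% of bases) and at Rsph9 (7.42-fold, 66.3%) were of this kind. The part of these repeats in the Foxa2 peak list was not tested.

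**Figure D5:**
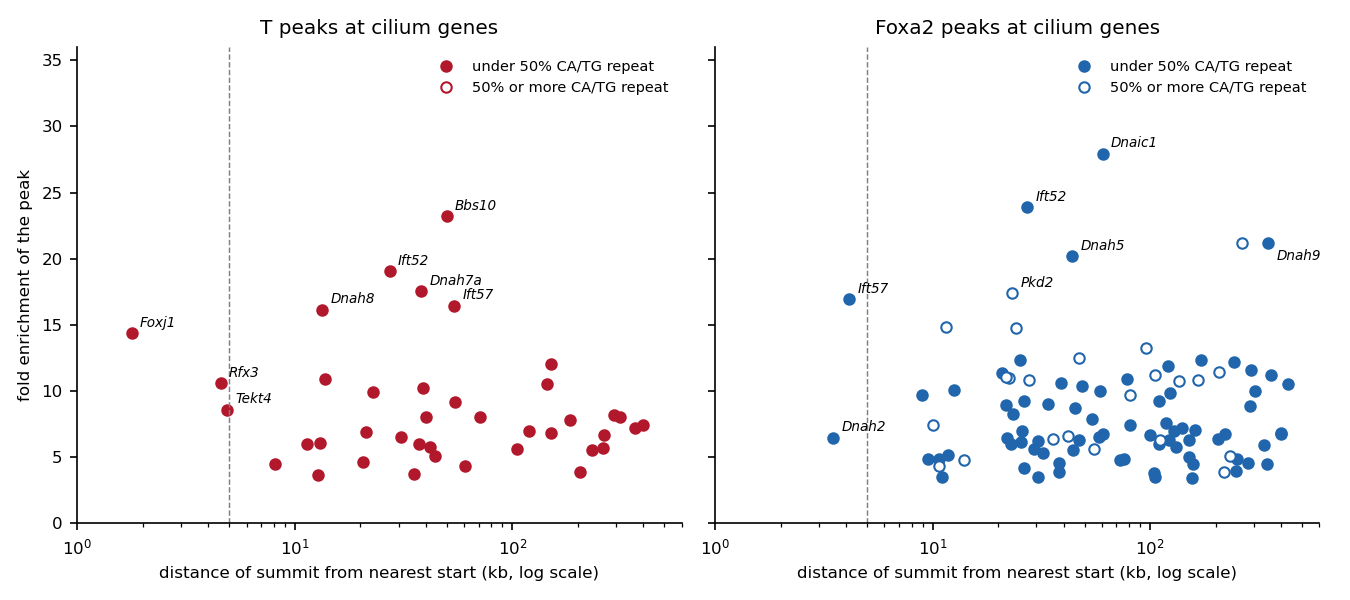
Fold enrichment of each T (left) and Foxa2 (right) peak in the gene or within 50 kb of it, for the 58 cilium genes, against the distance of its summit from the nearest start (log scale); the dashed line is at 5 kb and open circles are peaks with at least 50% of 101 bases in CA or TG runs. T peaks at Foxj1, Rfx3 and Tekt4 and Foxa2 peaks at Dnah2 and Ift57 lie left of the line, and open circles occur only for Foxa2.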

How the data were processed

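RNA-seq of 9 libraries and ChIP-seq of T and Foxa2 (1 library each) were used of 21 samples; the other 10, for other assays, were not used here. For RNA, the authors mapped reads to mm10 with TopHat2 (2.1.1 in the submitters' processing notes) and Bowtie (1.2.2), removed duplicates by unique molecular identifiers, and deposited FPKM values that Cufflinks (2.2.1) estimated. For ChIP, the authors aligned with Bowtie (1.3.1), removed duplicates and called peaks in each library with MACS3 (3.0.0b1), keeping q-values up to 0.1. In the deposited peak tables the columns are fold enrichment at the summit and −log10 of the q-value. Of the columns of per-sample values in the table, 0 were left out.

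Fragments were recovered as FPKM times curated RefSeq transcript length divided by the step per library, taking for each gene the transcript length that brought its low values nearest to whole numbers. Summed over genes they came to 380000 to 25500000 per library, beside 385000 to 27900000 implied by the steps. The study's 3-fold rule was applied to log2 ratios with 1 FPKM added, over all 23983 genes. With 1 library per condition no test was made, and no p-value or SD is given. Lengths, promoters and positions come from RefSeq on GRCm38.p6, and coordinates count from 1. Python (3.11.15), pandas (2.3.3), scipy (1.17.1) and samtools (1.23.1) were used, and recovery of depth and calls was tested on simulated data.

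Members and gene lists were chosen with earlier results of these data known. Genes named are Foxj1, the Rfx genes, Arl13b and Pkd2, genes past 3-fold at both stages, the 2 highest of each role, the 3 largest changes per comparison and direction, genes at 0 throughout and genes with a peak within 5000 bp; others were chosen after their values were seen. Alternatives were another pseudocount, a filter on low values, another scaling, 2-fold, MP at E9.5 as comparator, stricter peaks and windows and, added after seeing the data, a minimum of 10 fragments, a wider peak window and the comparison of NotoP between stages.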

Additional observations from a re-analysis of the deposited data

How the results depend on the processing

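Each condition has 1 library, so nothing could be left out within a group; no paired analysis was possible because the labels give no replicate numbers. Rescaling the libraries by the median of ratios over 7783 genes (factors 1.00 to 1.03) and a filter to a mean of 1 FPKM kept all 16 counts each within 1.5 times. The embryonic counts rest on few fragments: with at least 10 fragments in the higher library, genes higher in trunk notochord at E8.5 went from 5 to 2 (1.89% of all genes), and Ift27 no longer counted at both stages (0 genes, 0.1%).

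With 0.1 FPKM added, the counts below were larger, as were the shares of all genes, given in parentheses. NotoP over MP gave 2 higher at both stages (3.98%), 22 higher for E8.5 (16.7%), and 6 higher (7.89%) with 2 lower (5.3%) for E9.5. Trunk notochord over NotoP gave 12 higher (9.08%) and 6 lower (8.69%) at E8.5 and 11 lower (12.0%) at E9.5. NotoPdiff gave 5 higher (6.66%) and 1 lower (2.79%) against MPdiff and 6 (5.35%) and 2 (4.29%) against NMPdiff. NotoP at E9.5 over E8.5 gave 5 higher (8.02%) and 9 lower (5.81%). At 2-fold, NotoP over MP gave 2 higher at both stages (3.37%), 19 at E8.5 (14.9%), and 5 higher (6.52%) and 3 lower (3.64%) at E9.5. Trunk notochord at E8.5 gave 13 higher (9.92%) and 8 lower (8.38%), NotoPdiff over NMPdiff 5 higher (3.83%), and NotoP at E9.5 over E8.5 1 higher (6.24%) and 9 lower (5.55%).

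With MP at E9.5 as comparator at both stages, 5 genes instead of 12 were higher in NotoP at E8.5 (3.96% of all genes), 0 instead of 4 were lower (2.42%), and 0 instead of 1 were lower at both stages (0.55%). For peaks, a window of 1000 bp left 0 genes for T and 0 for Foxa2, and the gene with 50 kb on either side gave 28 and 38; a q-value of at most 0.001 and summits inside the window changed neither count.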
